A study of Homo sapiens with 6 samples.

Results

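TXNIP, its relatives ARRDC1, ARRDC2, ARRDC3 and ARRDC4, and the glucose-sensing transcription factors MLX, MLXIP and MLXIPL were followed in RNA sequencing counts of NCI-H69 cells. The 8 genes were chosen by name, and each matched 1 of the 60671 gene rows of the deposited files. NCI-H69 is an established human line from small cell lung cancer, neuroendocrine in type and labelled wild type. All cells were cultured for 48 h, with GNF5 at 20 µM in 3 libraries and with the vehicle DMSO in the other 3. GNF5 is an allosteric inhibitor of the ABL kinases. The labels also give its dose once in mM, a conflict that the sources used here do not settle. Whether the replicates came from separate cultures is not stated, and p-values therefore reflect the spread between these libraries, which may be technical.

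TXNIP and the ARRDC genes encode alpha-arrestins, adaptors that bring membrane proteins to NEDD4-type ubiquitin ligases and so promote their uptake from the cell surface. TXNIP is also known to bind and inhibit thioredoxin and to lower glucose uptake by internalising glucose transporters. MLXIP, also called MondoA, and MLXIPL, also called ChREBP, pair with MLX, sense phosphorylated hexoses and bind carbohydrate response elements, and TXNIP and ARRDC4 are their best known targets in many cell types.

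Because the carbohydrate response element is where the sensors and the arrestin genes meet, the 250 bases before the start of TXNIP, ARRDC4 and ARRDC3 are shown, from the RefSeq promoter table for GRCh38.p14. Both genes known as targets are given, followed by a relative that moved the other way. Capitals mark matches on either strand to CACGTG, to CCAAT, to TGTTTAC, and to a spaced pair of half-sites as in a carbohydrate response element, CACGNG followed after 5 bases by CNCGNG. They lie at chr1:145996580-145996829 (minus strand) for TXNIP, chr15:97960453-97960702 (plus strand) for ARRDC4 and chr5:91383318-91383567 (minus strand) for ARRDC3.
TXNIP: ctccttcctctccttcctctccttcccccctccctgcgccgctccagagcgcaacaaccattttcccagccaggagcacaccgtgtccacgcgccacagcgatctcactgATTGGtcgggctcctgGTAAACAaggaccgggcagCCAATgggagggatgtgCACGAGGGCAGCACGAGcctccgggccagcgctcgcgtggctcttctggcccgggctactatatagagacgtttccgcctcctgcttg
ARRDC4: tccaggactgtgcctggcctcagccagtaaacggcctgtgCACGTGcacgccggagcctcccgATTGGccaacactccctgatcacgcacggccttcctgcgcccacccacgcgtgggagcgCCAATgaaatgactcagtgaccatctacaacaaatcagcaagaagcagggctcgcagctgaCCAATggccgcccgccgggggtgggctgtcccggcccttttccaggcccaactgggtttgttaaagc
ARRDC3: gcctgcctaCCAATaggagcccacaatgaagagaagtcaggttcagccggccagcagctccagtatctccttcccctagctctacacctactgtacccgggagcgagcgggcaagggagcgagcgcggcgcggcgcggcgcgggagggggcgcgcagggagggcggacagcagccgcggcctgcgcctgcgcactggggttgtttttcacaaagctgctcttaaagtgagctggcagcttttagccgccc

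The TXNIP window held 1 match to the spaced pair, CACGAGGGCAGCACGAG, from -88 to -72 relative to the start. It is made of both CACGAG matches of the window. Of 35116 promoter windows of this length in the table, 0.424% held the spaced pair and 5.58% held CACGAG. Just upstream, TXNIP had 2 matches to CCAAT, the sequence that the factor NF-Y binds, at -140 and -105, with a match to the forkhead sequence TGTTTAC between them at -124. ARRDC4 had CACGTG at -210 and 3 matches to CCAAT, while ARRDC3 had a single CCAAT at -241. The table lists a second start for ARRDC3, whose window held TGTTTAC at -29. MLX had CACGTG at -50 and CCAAT at -66. CACGTG was found in 6.34%, TGTTTAC in 2.98%, and at least 2 CCAAT in 9.53% of windows. A second start is also listed inside TXNIP, and its window held none of the sequences searched. A match is a description of the letters and not a measured binding site.

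With GNF5, TXNIP RNA was 7.18-fold lower and ARRDC4 RNA 1.53-fold lower, whereas ARRDC3 RNA was 1.76-fold higher. ARRDC2 fell and ARRDC1 rose by smaller amounts. Among the glucose-sensing factors, MLX and MLXIPL rose and MLXIP did not pass the test. In all, 4 of the 8 genes were called higher and 3 lower. The background is high, since 61.6% of the 20734 genes tested were called, 31.0% higher and 30.7% lower, so that the number called says little about these genes, and the sizes and directions carry the description. Calls rest on edgeR's quasi-likelihood test with an adjusted p under 0.05 over all genes tested. Levels are counts per 1000000 counts (CPM) after TMM scaling, and log2 fold changes are GNF5 over DMSO with their standard error (SE). In bulk RNA, fewer cells that express a gene and less RNA per cell cannot be told apart.

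**Figure D1:**
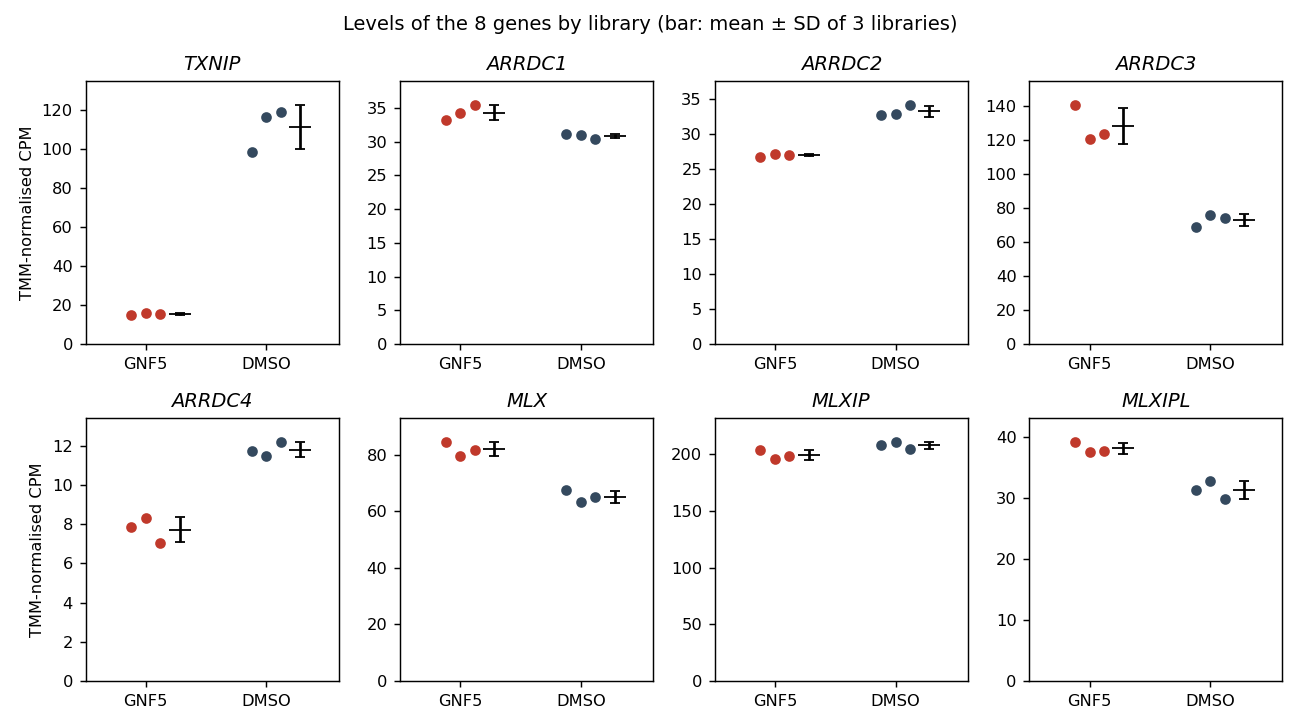
TMM-normalised CPM of each of the 8 genes in every library, GNF5 left of DMSO, with the mean and SD of 3 libraries beside the points and the axis starting at 0. TXNIP lay between 15.2 and 15.9 CPM in all GNF5 libraries and between 98.2 and 119 CPM in all DMSO libraries, while ARRDC3 lay above its DMSO values in every GNF5 library.

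TXNIP (ENSG00000265972, chromosome 1, 145992435 to 145996579, minus strand, GRCh38) had 15.2, 15.9 and 15.3 CPM in the GNF5 libraries, against 98.2, 116 and 119 CPM in the DMSO libraries. The groups lay far apart, the GNF5 values were nearly equal, and DMSO replicate 1 was the lowest of its group. The means were 15.5 ± 0.398 CPM with GNF5 and 111 ± 11.3 CPM with DMSO (SD, n = 3 each). The log2 fold change was -2.85 ± 0.062 (edgeR adjusted p = 6.38e-20). By size, this change exceeded that of 99.2% of the genes tested, and TXNIP stood at place 111 among the falls. Falls of at least 2-fold were called for 6.69% of the genes tested, and rises of that size, which ARRDC3 did not reach, for 4.95%. The raw counts behind it were 891, 739 and 804 with GNF5 and 5547, 7043 and 6851 with DMSO, so counting error is small beside the difference. No exon base of TXNIP is shared with another gene model on either strand.

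ARRDC4 (ENSG00000140450, chromosome 15, 97960703 to 97973833, plus strand) is an alpha-arrestin that, like TXNIP, is known to act on glucose transporters. It had 7.83, 8.32 and 7.02 CPM with GNF5, against 11.7, 11.5 and 12.2 CPM with DMSO. The groups did not overlap, and the difference was small beside that of TXNIP. Its log2 fold change was -0.61 ± 0.081 (edgeR adjusted p = 1.83e-07).

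ARRDC3 (ENSG00000113369, chromosome 5, 91368631 to 91383317, minus strand) is known for the ubiquitination and sorting of the beta-2 adrenergic receptor. It had 141, 121 and 124 CPM with GNF5, against 68.9, 75.9 and 74.2 CPM with DMSO. Every GNF5 library was above every DMSO library, and GNF5 replicate 1 was the highest. The log2 fold change was 0.82 ± 0.050 (edgeR adjusted p = 4.06e-12), and without GNF5 replicate 1 the estimate was 0.75.

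Reads were counted by strand, and ARRDC3-AS1 (ENSG00000281357), a transcript opposite to ARRDC3 that shares 2.91% of its exon bases, moved the other way. It had 28, 53 and 34 counts with GNF5, against 115, 131 and 126 counts with DMSO. Its log2 fold change was -1.52 ± 0.226 (edgeR adjusted p = 1.12e-06), with 0.477, 1.14 and 0.649 CPM in the GNF5 libraries against 2.04, 2.17 and 2.19 CPM in the DMSO libraries. ARRDC1-AS1 (ENSG00000203993) rose along with ARRDC1, from which it is read in the opposite direction, with a log2 fold change of 0.26 ± 0.049.

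ARRDC1 and ARRDC2 changed least among the arrestin genes. ARRDC1 (ENSG00000197070, chromosome 9, 137605685 to 137615360), which drives the budding of vesicles from the plasma membrane, had 33.2, 34.2 and 35.4 CPM with GNF5, against 31.1, 31.0 and 30.5 CPM with DMSO. Its log2 fold change of 0.15 ± 0.047 passed (edgeR adjusted p = 0.00689), and its size exceeded that of 25.1% of the genes tested. ARRDC2 (ENSG00000105643, chromosome 19, 18001132 to 18014102), a less studied relative, had 26.8, 27.1 and 27.1 CPM with GNF5, against 32.8, 33.0 and 34.2 CPM with DMSO. It fell by 0.30 on the log2 scale (SE 0.048, edgeR adjusted p = 3.49e-06), and its GNF5 values were almost identical.

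MLX (ENSG00000108788, chromosome 17, 42567068 to 42573239), the shared partner of both glucose sensors, had 84.7, 79.7 and 81.8 CPM with GNF5, against 67.4, 63.2 and 65.2 CPM with DMSO. The log2 fold change was 0.33 ± 0.040 (edgeR adjusted p = 3.73e-08). PSMC3IP, on the opposite strand, overlaps 18.2% of its exon bases and fell (-0.44 ± 0.044), opposite to MLX. MLXIPL (ENSG00000009950, chromosome 7, 73593194 to 73624543), best known from liver and fat, was also read in these cells. It had 39.2, 37.5 and 37.6 CPM with GNF5, against 31.2, 32.7 and 29.9 CPM with DMSO, which is 0.28 ± 0.048 on the log2 scale (edgeR adjusted p = 8.97e-06).

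MLXIP (ENSG00000175727, chromosome 12, 122078756 to 122147344), the sensor best known from skeletal muscle, had 204, 196 and 198 CPM with GNF5, against 208, 211 and 205 CPM with DMSO. The values of the groups just failed to overlap, which held for 65.9% of the genes tested. The log2 fold change was -0.06 ± 0.033 (edgeR adjusted p = 0.111), with an approximate 95% interval from -0.12 to 0.0035. MLXIP passed with upper-quartile scaling (adjusted p = 0.0225), with a stricter expression filter (0.0447) and without GNF5 replicate 1 (0.0499), over a range of 0.0225 to 0.321 for its alternatives.

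**Figure D2:**
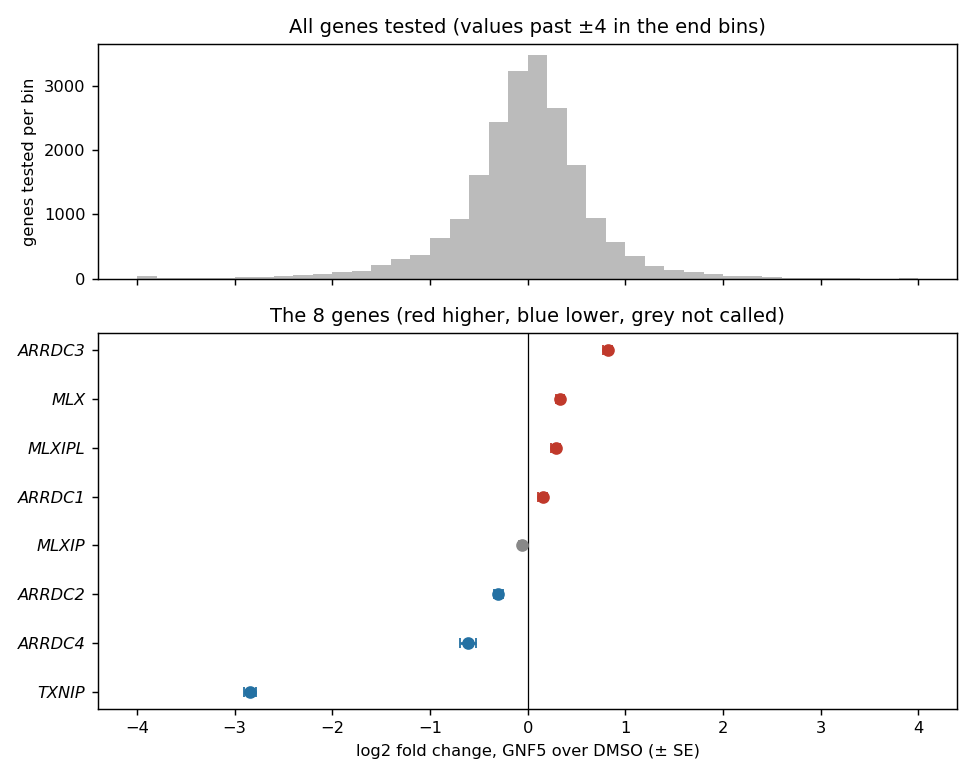
Top, the number of genes tested in each bin of log2 fold change (GNF5 over DMSO); bottom, the log2 fold change of each of the 8 genes with its SE. TXNIP, at -2.85, lies in the far left tail of all genes, whereas the other 7 lie between -0.61 and 0.82.

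Per length, the order of the 8 genes differed between the groups. Levels in transcripts per 1000000 (TPM), which divide counts by exon length, allow genes to be set beside each other. That length counts every annotated exon base of a gene, whether or not these cells use it. The order of the genes and their shares of summed TPM are therefore approximate, and ranges between libraries do not measure this error. With GNF5, ARRDC3 was highest at 85.5 ± 8.06 TPM, followed by MLX at 63.8 ± 2.61, MLXIP at 47.6 ± 1.52, ARRDC1 at 30.0 ± 0.723 and MLXIPL at 26.2 ± 0.945 TPM. ARRDC2 at 19.3 ± 0.083, TXNIP at 14.2 ± 0.290 and ARRDC4 at 6.30 ± 0.547 TPM completed that order, in which the ranges of no neighbours overlapped. With DMSO, TXNIP was highest at 102 ± 10.0 TPM (SD, n = 3 in each group). MLX, MLXIP and ARRDC3 came next at 50.7 ± 1.72, 49.6 ± 0.980 and 48.4 ± 2.36 TPM, and the ranges of neighbours in this trio overlapped. ARRDC1, ARRDC2, MLXIPL and ARRDC4 followed at 26.9 ± 0.424, 23.8 ± 0.440, 21.5 ± 1.06 and 9.61 ± 0.267 TPM, with no overlap between neighbours.

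**Figure D3:**
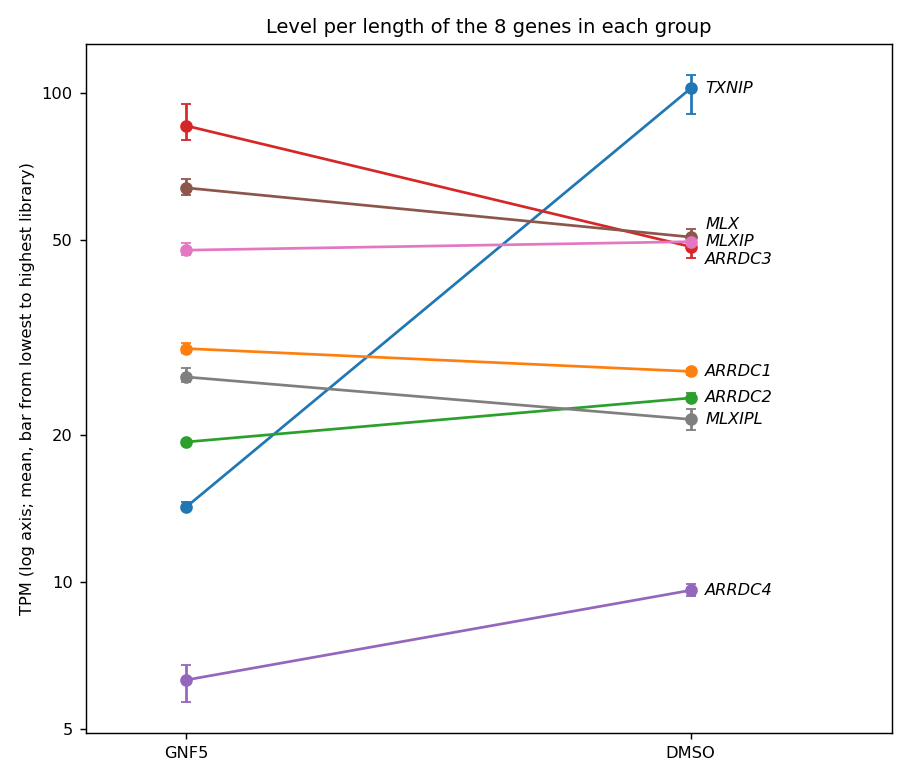
Level per length (TPM, log axis) of each of the 8 genes with GNF5 (left) and DMSO (right); points are means and bars run from the lowest to the highest of 3 libraries. TXNIP is the seventh of the 8 genes with GNF5 and the highest with DMSO, and ARRDC3 is the highest with GNF5.

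The make-up of the arrestin transcripts shifted accordingly. TXNIP held 9.18% ± 0.548 of the summed TPM of the 5 alpha-arrestin genes with GNF5 and 48.3% ± 2.02 with DMSO. ARRDC3 held 55.0% ± 2.42 with GNF5 and 23.0% ± 0.468 with DMSO (SD, n = 3 each). The sum itself was 155 ± 7.66 TPM with GNF5 and 211 ± 12.3 TPM with DMSO. For the glucose-sensing factors the sum was 138 ± 5.04 TPM with GNF5 and 122 ± 2.31 TPM with DMSO. Within it, MLXIP held 34.6% ± 0.167 with GNF5 and 40.7% ± 0.569 with DMSO.

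Ratios within a library, which do not depend on scaling between libraries, separated the arrestin genes from each other. The log2 ratio of TXNIP to ARRDC4 counts was 0.95, 0.94 and 1.13 in the GNF5 libraries, against 3.06, 3.34 and 3.28 in the DMSO libraries. The difference, GNF5 minus DMSO, was -2.22 ± 0.104 (SE), so the fall of TXNIP was greater than that of ARRDC4 in all 3 GNF5 libraries. The log2 ratio of TXNIP to ARRDC3 differed by -3.65 ± 0.099, and that of ARRDC4 to ARRDC3 by -1.43 ± 0.111. MLXIP to MLXIPL differed by -0.35 ± 0.025, with 2.38, 2.38 and 2.40 in the GNF5 libraries against 2.73, 2.69 and 2.78 in the DMSO libraries. TXNIP to TXN, the thioredoxin that it binds, differed by -2.62 ± 0.104. For each of the 5 ratios the groups did not overlap, and the two-sided exact permutation test gave p = 0.1 (0.1 adjusted over the 5), the smallest value that 3 against 3 libraries allow.

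Glucose-responsive genes other than TXNIP and ARRDC4 moved in both directions, more of them down than up. Of 22 listed targets of MondoA and ChREBP, many of which are liver genes, 16 were high enough to test, and 9 of these fell and 2 rose. The share called was 68.75%, near the 61.6% of all genes tested, and 56.25% were called lower, beside 30.7% of all genes. Their median log2 fold change was -0.24, beside 0.0057 for all genes tested. The lipid synthesis genes SCD, ACLY and FASN, which SREBP factors also control, fell (log2 fold changes -2.07, -0.87 and -0.88). KLF10, a direct target encoding a transcription factor, fell by 0.60 on the log2 scale and TKFC, an enzyme of fructose use, by 0.20. FGF21, a secreted metabolic hormone that ATF4 also induces, rose to 17.2 ± 1.21 CPM with GNF5, against 3.24 ± 0.182 CPM with DMSO, and RGS16 rose (0.31 ± 0.032). PKLR, the classical liver target, had 15 counts in all 6 libraries together and was not tested.

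Genes that bring hexoses into the cell and phosphorylate them, which makes the signal that MondoA senses, were mostly lower. Of 8 tested, 6 fell (75.0%, beside 30.7% of all genes tested) and 1 rose, with a median log2 fold change of -0.76. The glucose transporter SLC2A1 had 55.1 ± 0.438 CPM with GNF5 and 119 ± 7.03 CPM with DMSO, and hexokinase HK2 had 14.8 ± 0.354 CPM with GNF5 and 69.3 ± 5.56 CPM with DMSO (SD, n = 3 each). GPI, the isomerase of the next glycolytic step, fell (log2 fold change -1.02). The gene that rose was HKDC1, which stayed under 1 CPM.

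The partners of the glucose-sensing factors moved in both directions. Of 10 factors of the MAX and MLX network, 4 rose and 3 fell, a share called of 70.0% that is near the 61.6% of all genes. MXD1, a repressor of the network and 1 of the 4, lost its call with upper-quartile scaling (adjusted p = 0.0602), in the DESeq2 test (0.0753) and without GNF5 replicate 1 (0.0614), GNF5 replicate 2 (0.0629) or DMSO replicate 1 (0.245). MXD4, a repressor that can pair with MLX, fell to 49.5 ± 4.0 CPM with GNF5, against 105 ± 3.16 CPM with DMSO, and MXD3 fell (-1.02 ± 0.052). MYCN, amplified in this line, rose by 0.64 ± 0.034, and MAX, the shared partner of the MYC proteins, by 0.33 ± 0.041. MNT, which can pair with MLX as well as MAX, had a log2 fold change of -0.07 ± 0.047 that did not pass (edgeR adjusted p = 0.216).

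Genes for proteins that TXNIP is known to contact were measured as well. All 5 genes of the thioredoxin system fell slightly, TXN, TXN2, TXNRD1 and TXNRD2 with log2 fold changes of -0.22, -0.19, -0.21 and -0.28 (median of the list -0.22). The share called lower was 100%, beside 30.7% of all genes tested. Of 8 NEDD4-type ubiquitin ligases tested, 4 rose and 2 fell, so that 75.0% were called, beside 61.6% of all genes. NEDD4 rose to 130 ± 4.46 CPM with GNF5, against 49.6 ± 2.12 CPM with DMSO, and ITCH, the ligase known to degrade TXNIP, rose by 0.18 ± 0.037. WWP1 and SMURF1 rose (log2 fold changes 0.35 and 0.40). Among the AMP-activated kinase subunits, whose complex phosphorylates TXNIP for degradation, 2 of 6 tested were called, both higher, a share of 33.3% that is below that of all genes. The beta subunit PRKAB2 rose by 1.11 ± 0.042 and the catalytic subunit PRKAA1 by 0.22 ± 0.045.

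For the ESCRT proteins that ARRDC1 recruits to bud vesicles, VPS4A and VPS4B fell (log2 fold changes -0.15 and -0.19) and PDCD6IP rose by 0.12, a call lost without DMSO replicate 1 (0.08, adjusted p = 0.115). TSG101 did not pass (0.07 ± 0.040, edgeR adjusted p = 0.158). Of the other arrestins, the beta-arrestin ARRB2 rose to 73.5 ± 0.717 CPM with GNF5, against 60.6 ± 2.75 CPM with DMSO. ARRB1 fell to 1.46 ± 0.144 CPM with GNF5, against 4.0 ± 0.189 CPM with DMSO. The remaining alpha-arrestin, ARRDC5, had 0 counts in all 6 libraries, so its level could be as high as 0.00903 CPM (3 counts over all libraries). ADRB1, an adrenergic receptor, rose by 1.12 ± 0.098, and CASP1 of the inflammasome, which TXNIP can bind through NLRP3, had 0 counts in all libraries.

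Factors known to act at the TXNIP promoter, and other genes under their control, moved in both directions. Of 9 such factors, 3 rose and 4 fell, or 2 to 3 and 2 to 4 over the alternatives, under which FOXO1, NFYA and NFYC lost their calls in some fits, leaving out GNF5 replicate 2 or DMSO replicate 2 among them. The share called was 77.8%, beside 61.6% of all genes. ATF5, a stress factor reported to induce TXNIP, rose to 134 ± 2.50 CPM with GNF5, against 58.8 ± 1.44 CPM with DMSO, and the glucocorticoid receptor NR3C1 rose by 0.55 ± 0.043. The NF-Y subunit NFYB fell by 0.43 and USF2, which binds CACGTG, by 0.22 on the log2 scale. Of 10 glucocorticoid receptor targets, 7 were called, all higher (median 0.43). The share called, 70.0%, is near that of all genes, of which 31.0% were called higher. The 7 included DUSP1, TSC22D3, KLF9 and ZBTB16 at log2 fold changes of 0.69, 0.95, 0.42 and 0.44. FKBP5, NFKBIA and SGK1 were not called, at 0.077, -0.0040 and -0.025. Of 8 targets of FOXO factors, 5 fell and 2 rose (median -0.35), so that 62.5% were called lower, beside 30.7% of all genes, with CCNG2, CITED2 and SESN3 lower (-0.78, -0.47 and -0.31) and IRS2 higher (0.79 ± 0.058).

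**Figure D4:**
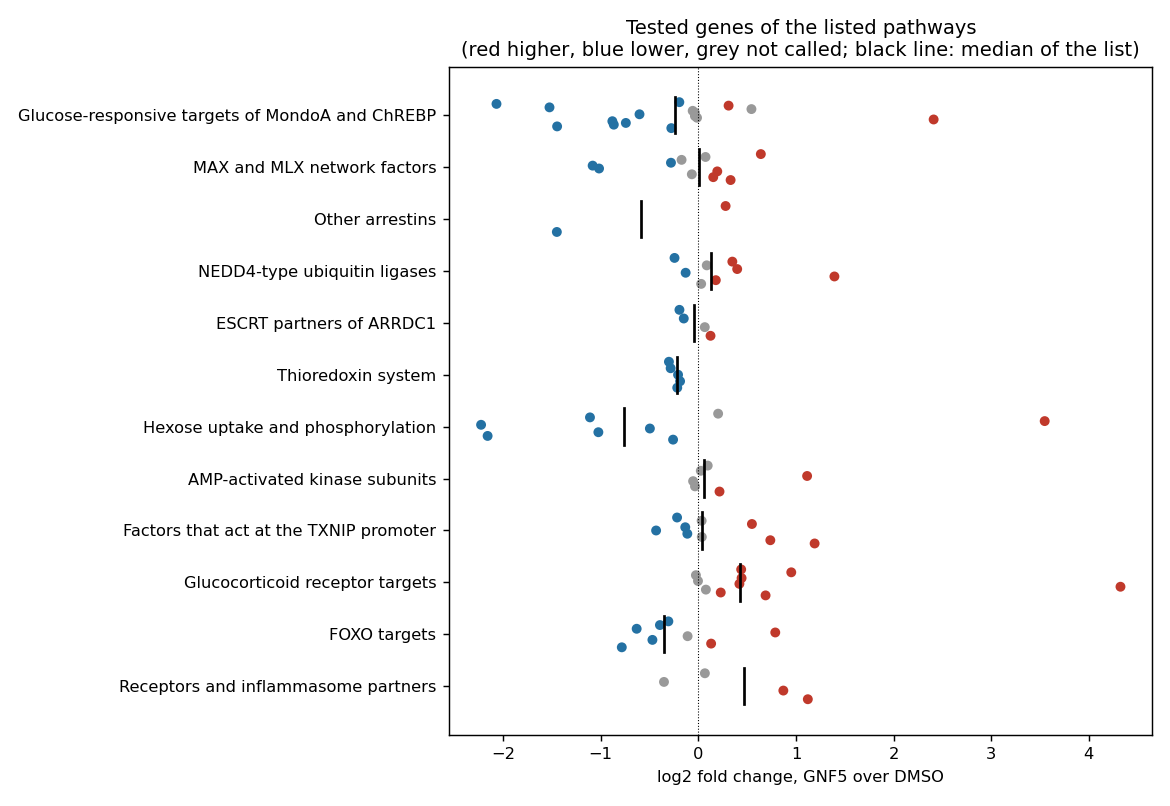
Log2 fold change (GNF5 over DMSO) of each tested gene of the 12 lists, by list, with the median of each list as a black line. The thioredoxin genes all lie left of 0, 6 of the 8 hexose genes were called lower, and 7 of the 10 glucocorticoid receptor targets were called higher. Of all genes tested, 30.7% were called lower and 31.0% higher.

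Among the 5 genes whose values over the 6 libraries lay closest to those of TXNIP were STC1, EGLN3, LINC01679 and HMGCS1, out of 12839 candidates with a mean log2 CPM of at least 1. Likeness was the root mean square difference of log2 CPM after centring each gene on its own DMSO mean, and it ran from 0.070 for STC1 to 0.214 for HMGCS1. STC1, a glycoprotein hormone, had 26.3 ± 1.67 CPM with GNF5 and 181 ± 10.4 CPM with DMSO. EGLN3 is an oxygen-sensing prolyl hydroxylase and HMGCS1 an enzyme of sterol synthesis, with log2 fold changes of -3.02 and -2.55. For ARRDC4 the closest were GRPEL1, NRAV, LLGL1, S100A2 and TMEM14B (0.047 to 0.053), with log2 fold changes from -0.63 to -0.56. Genes chosen by this likeness must change about as much as the reference gene, so their near fold changes are no separate result.

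**Figure D5:**
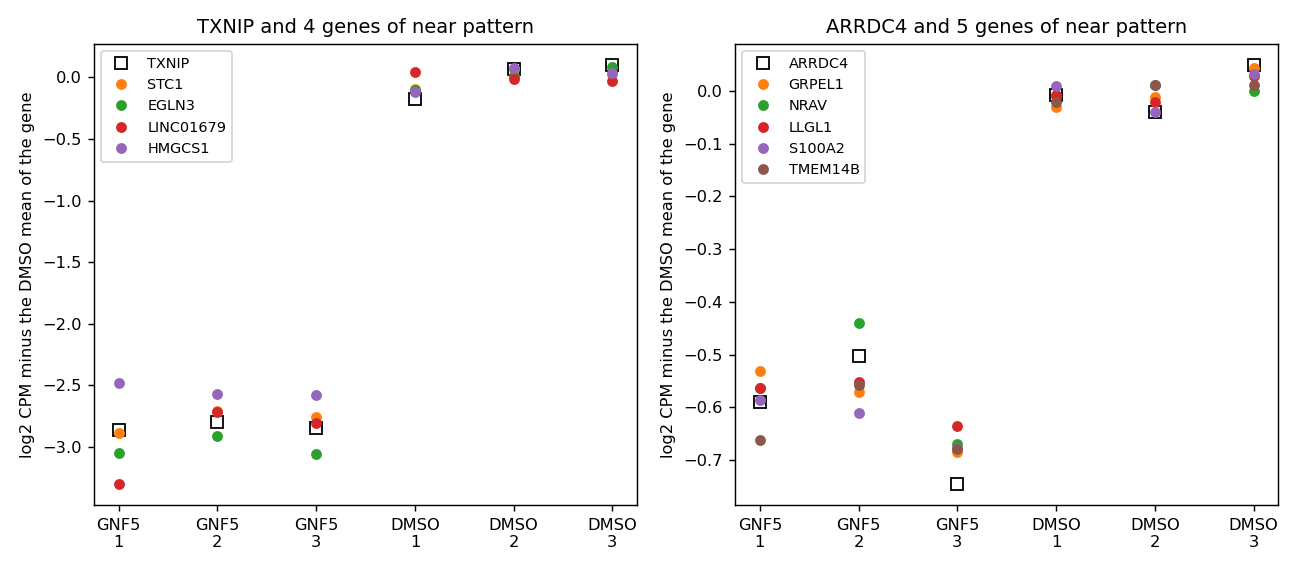
Log2 CPM minus the DMSO mean of the gene, by library, for TXNIP (left) and ARRDC4 (right, open squares) and 4 and 5 of the genes nearest to them (filled circles); the vertical scales differ. In every GNF5 library all genes drawn lie below their DMSO values, which follows from their choice by likeness to TXNIP or ARRDC4.

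The libraries held 46148701 to 60697602 counts, and TMM factors lay between 0.996 and 1.01. Neuroendocrine markers were high in all libraries, their 8 genes summing to 3885 to 3991 CPM with GNF5 and 3424 to 3519 CPM with DMSO. Among them INSM1 and CHGA were not called, SCG2, NCAM1 and CHGB rose, and DDC and SYP fell. CHGA was called higher without GNF5 replicate 1 (log2 fold change 0.10, edgeR adjusted p = 0.00946). INSM1 was called higher without GNF5 replicate 2 (0.085, edgeR adjusted p = 0.0490). The 6 leukocyte markers summed to 3.24 to 4.07 CPM with GNF5 and 4.62 to 4.93 CPM with DMSO, with CD3E at 0 counts. The 6 lung epithelium markers summed to 3.24 to 3.78 CPM with GNF5 and 8.39 to 9.03 CPM with DMSO, with SFTPB at 0. The 6 fibroblast markers summed to 65.8 to 73.1 CPM with GNF5 and 122 to 127 CPM with DMSO. Nearly all of it was COL1A2, and COL3A1 was at 0. Of the 4 tested, 2 fell and 1 rose, COL1A1, to 5.28 CPM with GNF5, against 2.89 CPM with DMSO. The part of these marker differences in the results above was not tested.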

How the data were processed

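The deposited values are raw fragment counts per gene, 1 file per library. Read pairs were counted by the authors with featureCounts 1.6.1, reverse-stranded, and exon counts were added up per gene on GRCh38 (Ensembl release 101), per the file headers. Multi-mapped reads and reads that overlap several genes were handled by default, which leaves them out. Per the submitters' processing notes, Trim Galore, STAR, HTSeq, DESeq2 and GRCh37 were also named, without roles; the headers were followed for coordinates, and the build of the alignment is not settled.

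Groups came from the sample titles. Symbols were matched by gene ID for 60401 of 60671 rows. GNF5 was compared with DMSO in edgeR 4.0.16 (R 4.3.3) by its robust quasi-likelihood test, with TMM scaling, the default expression filter (20734 genes kept, 39937 removed, which held 0.063% of counts) and Benjamini-Hochberg adjustment. The SE was back-calculated from the F statistic. TPM used the exon lengths in the files. A log2 ratio had 0.5 added to each count. The fit was also run on simulated data in which a small share of genes changed, evenly up and down. Far more genes were called here, so that run does not test the scaling or the error rate at this background. No library was a copy of another, since chi-square per degree of freedom was 3.18 to 8.76 between libraries of a group. A level of 3 counts was 0.0494 to 0.065 CPM, and such limits cover counting error only.

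The members and lists were chosen with earlier results of these data known. Named were all 8 genes, up to 4 called genes of each list with the lowest p and a mean log2 CPM of at least 1, uncalled list genes with at least 20 CPM in every library, and the 5 nearest genes of TXNIP and of ARRDC4. Some of these names were left out for length, and a few genes are not reported here. RGS16, KLF10, TKFC, HKDC1, PKLR, ARRDC5, CASP1, SYP, CD3E, SFTPB, COL3A1, MXD1, FOXO1, NFYA, NFYC, the antisense genes and PSMC3IP were named after their values were seen. So were CD14, PTPRC, FKBP5 and SGK1.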

Additional observations from a re-analysis of the deposited data

How the results depend on the processing

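Of the 8 genes, 4 were called higher under each of the 12 alternative fits, and 3 or 4 were called lower, the fourth being MLXIP. The alternatives were DESeq2 size factors, upper-quartile factors, the DESeq2 Wald test, no expression filter, a filter of at least 1 CPM in 3 libraries (15675 genes), the replicate block, and each library left out in turn. No gene changed sign under them. With a library left out, the log2 fold change ran from -2.93 to -2.80 for TXNIP, -0.66 to -0.55 for ARRDC4 and 0.75 to 0.86 for ARRDC3, and between 5926 and 6200 genes were called higher and 5969 to 6212 lower. With the replicate block, 6279 genes were called higher and 6196 lower. Same-numbered libraries did not visibly deviate together (correlations -0.11, -0.026 and 0.0037 over 13865 genes). Differently numbered libraries gave -0.059 to 0.079. A pairing of the samples is not stated in the labels, and so few libraries cannot exclude it. The within-library ratios kept their direction in all alternatives, but exact permutation tests of 3 against 3 libraries, or of 3 pairs (p = 0.25), cannot pass a threshold of 0.05. Low counts limit genes such as ARRDC3-AS1, HKDC1 and KLF15, and genes at 0 counts could lie under the limit given.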

Other observations

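The genes given here were picked out of the lists after their values were seen. KLF15, a metabolic transcription factor that glucocorticoids induce, had 2.21 ± 0.503 CPM with GNF5 and 0.109 ± 0.030 CPM with DMSO (SD, n = 3 each; log2 fold change 4.32 ± 0.295). PNPLA3, a lipid droplet protein and glucose-responsive gene, had 5.71 ± 0.808 CPM with GNF5 and 16.5 ± 1.54 CPM with DMSO. FOXJ1, the factor of ciliated cells, had 0.601 CPM with GNF5 and 4.81 CPM with DMSO.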
